A study of Mus musculus with 6 samples.

Results

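Dividing microglia were 203 cells that carried transcripts of the cell division machinery together with transcripts of microglia, the resident macrophages of the brain. They were chosen from the RNA counts of single cells: at least 4 UMIs (unique molecular identifiers, each a counted transcript) over the 5 cycle genes Mki67, Top2a, Birc5, Cenpf and Ube2c, at least 3 UMIs over the 4 microglia genes P2ry12, Tmem119, Siglech and Gpr34, and at most 1 UMI over the 4 genes of infiltrating myeloid cells Ms4a7, Ly6c2, Plac8 and Ccr2. Cells needed at least 500 RNA UMIs, less than 10% mitochondrial UMIs, and 1 hashtag with at least 80% of their hashtag UMIs, which kept 22157 of 36755 barcodes. Of these, 9589 were microglia by the same microglia and infiltrating limits, and 8999 of the 9589 held 0 UMIs of the 5 cycle genes. Those cells are called non-dividing microglia here and served as the comparison, within the same hashed sample in every test; medians and shares over all 203 and 8999 cells pool the samples.

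The study profiled CD11b+ cells of C57BL/6 mouse brain, aged 12 weeks, by CITE-seq, which counts RNA and antibody tags of surface proteins in the same cell. Its groups were female and male mice with a glioma 14 days after implantation, female and male mice with a glioma 21 days after implantation, and female and male control mice without a tumor. Tumor-bearing hemispheres, or whole brains of controls, were taken after perfusion with PBS and dissociated with enzymes, and each of 3 pools held 1 hashed sample of each of the 6 groups. The labels do not say which hashtag marked which group, so a hashed sample is named by its pool and hashtag number, and no sex, day or tumor status is given to any cell. The label says brain CD11b+ cells without naming microglia, so the microglial identity rests on the rule genes. Outside the rule, Cx3cr1, the fractalkine receptor, had a UMI in 189 of 203 dividing microglia (93.1%) and in 99.2% of non-dividing microglia. Sall1, a transcription factor of microglia, had a UMI in only 95 of 203 dividing microglia (46.8%) and in 64.2% of non-dividing microglia. Whether Cx3cr1 sets these cells apart from infiltrating cells was not tested.

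Microglia are kept up in the adult brain by local division of existing cells and depend on signalling through the receptor CSF1R. A dividing cell first licenses and copies its DNA with the MCM helicase, PCNA and the enzymes that make deoxynucleotides, while E2F factors drive the genes of that step. Later, CDK1 with cyclin B condenses the chromosomes and builds the spindle, kinetochores attach the chromosomes to it, and the anaphase-promoting complex ends mitosis. P2ry12, Tmem119 and their like mark the resting state of microglia and are known to be lower in microglia that respond to injury or tumors.

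Promoters of genes of the later steps are known for CCAAT boxes, bound by NF-Y, and for the cell cycle genes homology region TTTGAA, bound by the DREAM and MuvB complexes. The 120 bases before the start of 4 genes that define or accompany division, and of a microglia gene for contrast, are printed from RefSeq (GRCm38.p6), with CCAAT or its reverse complement ATTGG, and TTTGAA or its reverse complement TTCAAA, in capitals. Each is written along the strand of its gene.
Top2a (chr11:99024190-99024309, minus strand): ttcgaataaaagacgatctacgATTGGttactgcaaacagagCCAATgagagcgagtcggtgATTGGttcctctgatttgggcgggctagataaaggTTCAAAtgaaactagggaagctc
Ube2c (chr2:164769809-164769928, plus strand): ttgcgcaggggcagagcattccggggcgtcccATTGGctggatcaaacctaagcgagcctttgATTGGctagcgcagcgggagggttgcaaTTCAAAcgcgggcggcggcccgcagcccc
Cdk1 (chr10:69352913-69353032, minus strand): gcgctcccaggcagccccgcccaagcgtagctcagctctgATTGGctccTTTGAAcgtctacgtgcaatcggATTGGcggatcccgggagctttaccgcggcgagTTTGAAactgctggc
Ccnb2 (chr9:70421555-70421674, minus strand): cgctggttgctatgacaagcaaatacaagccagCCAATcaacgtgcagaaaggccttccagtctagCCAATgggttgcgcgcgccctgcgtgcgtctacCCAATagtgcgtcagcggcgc
P2ry12 (chr3:59262986-59263105, minus strand): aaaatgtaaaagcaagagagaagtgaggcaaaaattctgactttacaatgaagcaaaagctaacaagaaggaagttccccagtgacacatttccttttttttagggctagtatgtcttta
Counted on both strands over the 250 bases before the start, where the motifs may overlap by 1 base, 10.5% of all 27025 promoters held at least 2 CCAAT boxes and 16.3% held at least 1 TTTGAA. Among the 5 cycle genes of the rule, 4 held at least 2 CCAAT boxes and 3 held TTTGAA; Birc5 held neither. Of 13 matched promoters of cyclins and CDKs, 7 held at least 2 CCAAT boxes and 4 held TTTGAA. Of 41 matched promoters of spindle and kinesin genes, 15 held at least 2 CCAAT boxes and 12 held TTTGAA. Cohesin and condensin genes (5 of 10), chromatin genes (6 of 18) and E2F, MYB and DREAM factors (3 of 12) also held TTTGAA more often than all promoters. CDK inhibitor and checkpoint genes (2 of 12, 16.7%) were near the 16.3% of all promoters. Below it were kinetochore genes (3 of 20), replication genes (5 of 31), nucleotide synthesis genes (0 of 13) and DNA repair genes (1 of 10). Among the 5815 matched promoters of the genes tested below, 10.3% held TTTGAA. Kinetochore (15.0%) and replication genes (16.1%) were above that share, and nucleotide synthesis and DNA repair genes were not. TTTGAA was present in 1 of 15 homeostatic promoters and in 3 of 15 interferon response promoters, the latter above both shares. At least 2 CCAAT boxes were present in 2 of 15 homeostatic microglia promoters and in 0 of 15 interferon response promoters. At least 1 CCAAT box was present in 34.5% of all promoters, in 69.2% of those of cyclins and CDKs, 68.3% of spindle genes, 66.7% of homeostatic genes and 26.7% of interferon response genes, so by 1 box the homeostatic promoters stood beside those of the cycle. These are letter matches and say nothing of what binds there.

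The 3 pools held 74848339, 107880924 and 71510276 RNA UMIs, of which the filters kept 10908, 9353 and 1896 cells. Pool 3 lost most of its cells at the hashtag filter and gave 6 dividing microglia, against 125 in pool 1 and 72 in pool 2. Of 36620 distinct barcodes, 135 occurred in more than 1 pool, 4 of them among dividing microglia. The cells chosen for cycle transcripts were deeper: the median was 8325 UMIs in dividing and 4487 UMIs in non-dividing microglia over all samples, and sample medians in the 7 hashed samples tested below were 6150 to 19813 UMIs in dividing and 4132 to 7099 UMIs in non-dividing microglia. The rule sets UMI numbers whatever the depth of a cell, so results below are also given against non-dividing cells of the same depth, 3 for each dividing cell and within 0.1 on the log10 scale of UMIs. That comparison holds 164 dividing and 492 non-dividing cells.

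A few members held transcripts of other cell types. Of the 203 dividing microglia 5, or 2.46%, held 3 or more UMIs of neural progenitor and glioma-type genes or of T cell genes, against 14 of 8999 non-dividing microglia, or 0.156%. A pair of them in pool 2 hashtag 5 held 78784 and 50210 UMIs, which was 27.1% and 17.3% of the summed RNA of its 13 dividing microglia. These carried 92 and 30 UMIs of Sox2, a transcription factor of neural stem cells and gliomas, and only 4 microglia UMIs each. A cell of pool 1 hashtag 4 held 51 T cell UMIs beside 36 microglia UMIs. Summed neural and glioma-type markers had 7.84, 17.0 and 578 CPM (counts per 1000000 UMIs) as the lowest, median and highest of 7 hashed samples in dividing microglia, against 2.48, 5.60 and 18.7 CPM in non-dividing microglia. Fabp7, Pdgfra, Sox9 and Egfr of that list were at 0 in dividing microglia. The T cell list had UMIs of 7 of its 8 genes, all but Cd8a, and 58 UMIs in dividing against 107 UMIs in non-dividing microglia, at 0 to 175 CPM against 1.24 to 20.3 CPM and higher in 5 of 7 samples. Trbc2, Cd3d and Trac led it with 15, 13 and 10 UMIs in dividing microglia. The NK cell list had UMIs of 5 of 8 genes, 27 of its 37 UMIs in dividing microglia being Nkg7, with Ncr1, Klrb1c and Eomes at 0, and was lower in 7 of 7 samples, at 0 to 92.6 CPM against 10.0 to 339 CPM. All 5 erythroid genes were at 0 in dividing microglia. Summed monocyte markers outside the rule, 8 genes with Ifitm6 at 0, were higher in dividing microglia of 7 of 7 samples, at 41.2 to 56.6 CPM against 25.5 to 51.1 CPM; Cd44 gave 50 of their 99 UMIs in dividing microglia. Infiltrating macrophage markers summed to 411 to 1522 CPM in dividing and 448 to 955 CPM in non-dividing microglia and were higher in 3 of 7 samples. Lyz2 gave 970 of their 1454 UMIs in dividing and 10915 of 12548 in non-dividing microglia, so that sum follows mostly 1 gene. Over the summed cells Lyz2 was lower in dividing microglia, at 495 and 599 CPM, as was Mmp12, at 0.511 and 1.81 CPM. The other listed genes were higher there. Arg1 was at 88.3 and 23.5 CPM, Gpnmb at 61.3 and 7.30 CPM and Tgfbi at 58.7 and 44.7 CPM. Ccl8 was at 28.1 and 6.199 CPM and Itga4 at 10.2 and 6.09 CPM. Oligodendrocyte markers were higher in 4 of 7, at 68.0 to 368 CPM in dividing and 104 to 143 CPM in non-dividing microglia, with Olig1 at 33.7 and 0.878 CPM and Olig2 at 11.2 and 0.110 CPM; without the cells that carried neural or T cell markers their sum was 55.7 to 125 CPM in dividing and 103 to 139 CPM in non-dividing microglia. Summed neutrophil markers were lower in 7 of 7, at 24.1 to 108 CPM against 114 to 260 CPM, with Ly6g, Mmp8 and Cxcr2 at 0. Of these UMIs, 114 of 124 in dividing and 2767 of 3400 in non-dividing microglia were Csf3r, so that sum follows 1 gene. Results are therefore also given without the cells that carried neural or T cell markers, 178 dividing and 3193 non-dividing cells; the part of the other markers in the results was not tested. A doublet score over 0.2 was reached by 0 of 203 dividing and by 91 of 8999 non-dividing microglia. The 5 members with neural or T cell transcripts were thus not marked by it either. The score therefore cannot show whether members were single cells.

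Dividing cells made up 2.12% of all microglia (203 of 9589, exact 95% binomial interval 1.84 to 2.43%). In pool 1 the hashed samples with hashtags 1 to 6 had 0.165%, 0.106%, 3.84%, 5.08%, 8.12% and 5.35% dividing cells. In pool 2 they had 0.470%, 0.148%, 1.003%, 6.37%, 3.90% and 3.29%. In pool 3, where 35 to 258 microglia were left per sample, they had 0.935%, 0%, 0.388%, 0%, 5.26% and 2.86%. For the samples at 0, a count of 0 allows up to 1.33% in hashtag 2 and 2.0% in hashtag 4, taking 3 counts as the limit, and the exact intervals reach 1.62% and 2.43%. The intervals cover counting error only, and the samples are described one by one because their groups are not known. When every cell was thinned to 2000 UMIs, which leaves out 3 to 147 shallower microglia per sample, hashtags 1 to 6 of pool 1 had 0.178%, 0.115%, 2.28%, 2.37%, 5.32% and 1.66% dividing cells, and those of pool 2 had 0.485%, 0.152%, 0.346%, 2.97%, 1.54% and 1.84%. Infiltrating myeloid cells, chosen by at least 3 UMIs of the infiltrating genes and at most 1 of the microglia genes, reached the same 4 cycle UMIs in 70 of 7622 cells. In hashtags 3 to 6 their shares were 0.775%, 0.316%, 0.749% and 0.456% in pool 1 and 1.74%, 0.895%, 1.63% and 0.972% in pool 2; hashtags 1 and 2 held 7 to 21 such cells each there, too few for a share.

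**Figure D1:**
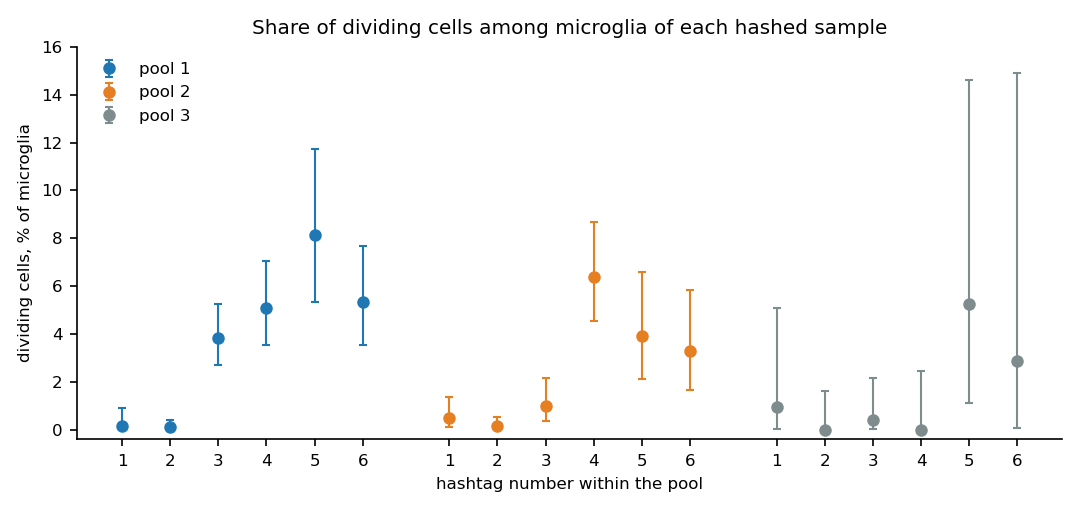
Share of dividing cells among microglia (vertical axis, percent) in each of the 18 hashed samples, by hashtag number within the pool (horizontal axis). Points are the measured shares and bars the exact 95% binomial intervals; the shares span 0% in pool 3 hashtags 2 and 4 and 8.12% in pool 1 hashtag 5.

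Within the 203 dividing microglia the 5 cycle genes did not all appear in every cell. Birc5, the survivin subunit of the chromosomal passenger complex, had a UMI in 172 cells; Top2a, the topoisomerase that untangles sister DNA, in 166; Ube2c, the ubiquitin-conjugating enzyme of the anaphase-promoting complex, in 154; Mki67, which coats mitotic chromosomes, in 143; and Cenpf, a kinetochore protein, in 128. All 5 were present in 71 cells, 4 in 50, 3 in 48, 2 in 30 and 1 in 4. The cells held 4 to 108 cycle UMIs, with a median of 13. These values chose the cells and are given as a description. Just inside the limit, the 21 cells with 4 cycle UMIs had a median of 15.3 UMIs per 10000 of replication and nucleotide genes and 3.80 of mitosis genes; just outside it, the 33 microglia with 3 cycle UMIs had medians of 8.08 and 4.24. Stmn1, a microtubule regulator, had a UMI in 81.0% of the cells inside and in 93.9% of the cells outside, so neither side was the higher one in all of these genes.

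Genes that the rule did not use were widespread among the dividing cells. In the 7 hashed samples with at least 10 dividing cells, cyclin genes Ccna2, Ccnb1 and Ccnb2 had a UMI in 48.1%, 48.6% and 62.8% of 183 dividing microglia, against 0.0936%, 0.312% and 0.499% of 3204 non-dividing microglia. Cdk1 was found in 60.1% of dividing and 4.09% of non-dividing cells, and Pclaf, a PCNA-binding factor of DNA replication, in 75.4% and 0.780%. Pcna, which is also used in DNA repair, was found in 58.5% of dividing and in 26.8% of non-dividing cells. Inhibitors of CDKs were present as well: Cdkn1a (p21) in 75.4% of dividing and 26.0% of non-dividing cells, and Cdkn2a (the p16 and ARF locus) in 31.1% and 1.44%. Median depths behind these shares were 8349 and 4970 UMIs. Among the infiltrating genes, Plac8 had its 1 permitted UMI in 25.7% of dividing and in 14.9% of non-dividing microglia, Ly6c2 in 6.01% and 4.24%, Ms4a7 in 2.73% and 2.84%, and Ccr2 in 0.546% and 1.22%. Per summed UMIs Plac8 averaged 27.3 CPM in dividing and 27.5 CPM in non-dividing microglia, higher in 3 and lower in 4 of the 7 samples. With at most 1 UMI allowed per cell, the rule limits this value more in the deeper dividing cells. Neither the shares nor the CPM can therefore show whether Plac8 differed.

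Dividing microglia varied in their replication and in their mitosis transcripts. Summed over 53 replication and nucleotide genes they had a median of 29.5 UMIs per 10000, and over 17 mitosis genes, picked after their values were seen, 17.7 per 10000. The replication sum was the higher one in 121 cells and the mitosis sum in 73. The sums differ in gene number and in background: non-dividing microglia had medians of 6.42 and 0 per 10000. Which sum was higher therefore does not give the phase of a cell. Across the 203 cells, Pearson's r between the sums was -0.21 and Spearman's rho -0.15; the cells share libraries and a fixed total of UMIs per cell, so this is a description. Only 5 cells lacked a mitosis UMI and 2 lacked a replication UMI. The ratio of mitosis to replication sums differed between hashed samples, at 0.597, 0.401, 0.458 and 0.621 for hashtags 3 to 6 of pool 1 and at 0.900, 0.525 and 0.815 for hashtags 4 to 6 of pool 2.

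**Figure D2:**
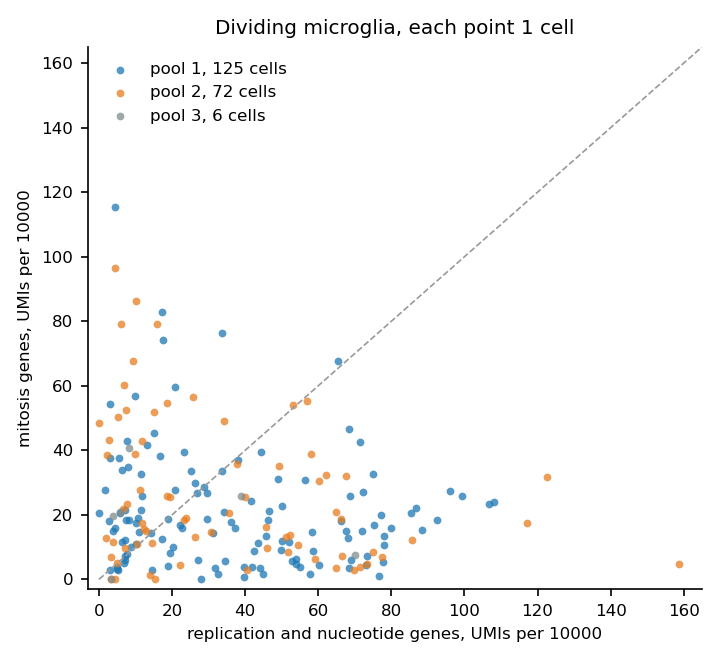
Each of the 203 dividing microglia by its UMIs per 10000 of replication and nucleotide genes (horizontal axis) and of mitosis genes (vertical axis), coloured by pool. The dashed line marks equal sums, with 121 cells below it and 73 above it. The sums hold 53 and 17 genes, so the line does not divide the cells by phase.

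The RNA of dividing microglia was then compared with that of non-dividing microglia in the 7 hashed samples with at least 10 dividing cells (hashtags 3 to 6 of pool 1 and 4 to 6 of pool 2; 183 dividing and 3204 non-dividing cells). Counts were summed per sample and arm, and edgeR's quasi-likelihood test was run with the hashed sample as a block. Of 7210 genes tested, 1423 were higher in dividing microglia at an adjusted p under 0.05, a percentage of 19.7, and 1196 were lower, a percentage of 16.6. The median log2 fold change of all genes was -0.02. Against cells of matched depth, 682 of 4535 genes were higher (15.0%) and 544 were lower (12.0%). With every cell thinned to 2000 UMIs, 540 of 4102 were higher (13.2%) and 529 lower (12.9%), and without the cells that carried neural or T cell markers 1469 of 7151 were higher (20.5%) and 1231 lower (17.2%). The samples of pool 2 alone gave 644 of 8736 genes higher (7.37%) and 550 lower (6.3%), and those of pool 1 alone 1129 of 6796 higher (16.6%) and 902 lower (13.3%). Of 1117 risen genes that could be tested at matched depth, 645 were called again and 31 had the opposite sign; of 898 fallen genes, 448 were called again and 14 had the opposite sign. Genes other than the 13 of the rule were counted in the very cells that the 5 cycle genes had selected, so a rise of other cycle genes is not independent of the choice. CPM values below are the lowest, median and highest of the 7 samples, on TMM-scaled library sizes; fold changes are on the log2 scale, dividing over non-dividing, with standard errors.

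**Figure D3:**
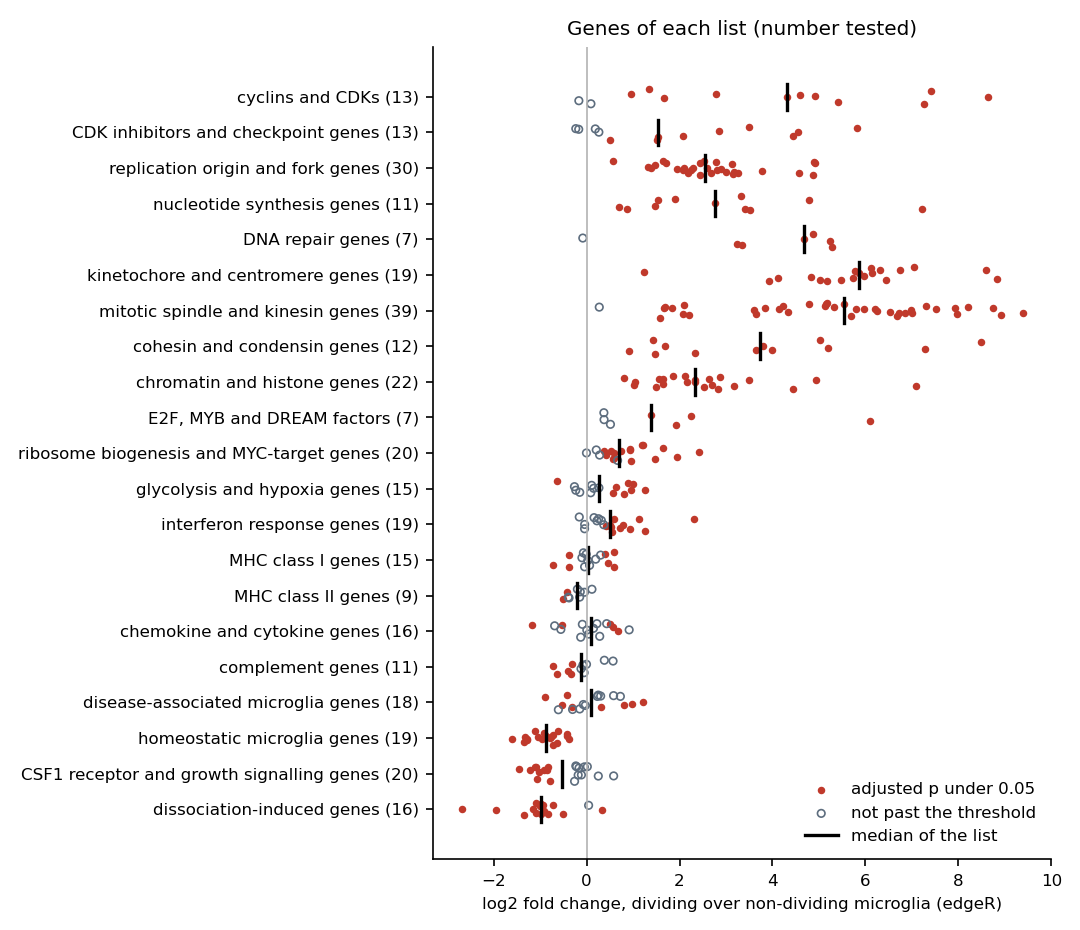
Log2 fold changes, dividing over non-dividing microglia, of the tested genes of 21 gene lists (edgeR; 7 hashed samples). Filled red points passed an adjusted p of 0.05, open grey points did not, and bars mark list medians; the medians of the cell cycle lists lie right of 0, and those of the homeostatic, CSF1 receptor and dissociation lists lie left of it.

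Most cyclins and their kinases rose. Of 13 tested cyclin, CDK and cofactor genes, 11 rose and 0 fell, with a median of 4.32 (against cells of matched depth, 8 of 10 rose). Ccna2, the cyclin of S phase and mitotic entry, had 51.6, 77.1 and 147 CPM in dividing microglia, against 0, 0 and 0.458 CPM in non-dividing microglia; over 193 and 3 UMIs this was a ratio of 599-fold (counting interval 202 to 2930.4). Cdk1 had 140.0, 181 and 313 CPM in dividing microglia, against 4.52, 7.18 and 17.4 CPM in non-dividing microglia, a log2 fold change of 4.59 ± 0.23 (edgeR adjusted p = 1.6e-13). In both genes every dividing sample was above every non-dividing one. The mitotic cyclins Ccnb2 and Ccnb1 rose by 7.40 and 7.26, and the S-phase cyclins Ccne2 and Ccne1 by 5.41 and 4.93. Cdk4, which acts with D cyclins before replication, rose by only 1.34 ± 0.13, and Ccnd3 by 0.96 ± 0.19. Ccnd1 had 102, 119 and 172 CPM in dividing microglia, against 103, 116 and 139.9 CPM in non-dividing microglia (0.09 ± 0.13, edgeR adjusted p = 0.62), and Cdk6 stood at -0.17 ± 0.20: the ranges of both groups overlapped, and these were the tested members that did not pass.

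Inhibitors of the cycle were also higher in the dividing cells. Of 13 inhibitor and checkpoint genes tested, 9 rose and 0 fell (median 1.53; matched depth, 4 of 7). Cdkn1a, which binds and blocks CDKs after p53 activation, had 348, 726 and 888 CPM in dividing microglia, against 143, 236 and 263 CPM in non-dividing microglia, a fold change of 1.53 ± 0.20 (edgeR adjusted p = 2.4e-05) and of 1.20 at matched depth. All dividing samples were above all non-dividing samples. Cdkn2a had 20.9, 66.7 and 301 CPM in dividing microglia, against 0.579, 2.22 and 7.66 CPM in non-dividing microglia; the highest value belongs to pool 2 hashtag 5, whose pair of Sox2-rich cells held 57 and 22 Cdkn2a UMIs. It was too low to test at matched depth. Its fold change was 4.55 ± 0.34 with and 3.87 without the cells that carried neural or T cell markers (edgeR adjusted p = 1.3e-12). Cdkn2c and Cdkn2d, which hold back CDK4 and CDK6, rose by 3.50 and 2.84, and Cdkn3, a phosphatase acting on CDKs, by 5.83. Mdm2, which degrades p53, rose by 0.51 ± 0.17 (edgeR adjusted p = 0.023) and stood at 0.41 at matched depth (adjusted p = 0.15), and it lost its call without any 1 of pool 1 hashtag 3 (0.41), pool 1 hashtag 4 (0.48), pool 2 hashtag 4 (0.50) and pool 2 hashtag 6 (0.44). Trp53, Cdkn1b, Rb1 and Rbl2 did not pass, with fold changes of 0.26, -0.17, -0.23 and 0.19.

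All 30 tested genes of replication origins and forks rose, with a median of 2.55 (matched depth, 18 of 18). Pcna, the sliding clamp of DNA polymerases, had 72.3, 192 and 282 CPM in dividing microglia, against 40.9, 55.7 and 134 CPM in non-dividing microglia, a rise of 1.38 ± 0.17 (edgeR adjusted p = 1.2e-06); it was higher in dividing cells of 7 of 7 samples although the ranges overlapped, the lowest dividing sample being pool 1 hashtag 6. Gmnn, which blocks relicensing of origins, rose by 3.00 ± 0.20, and the helicase subunit Mcm3 by 1.46 ± 0.19. Cdc45 and Asf1b, a helicase partner and a histone chaperone, rose by 4.87 and 4.92. All of the 11 tested nucleotide synthesis genes rose as well (median 2.77). Rrm2, the regulated subunit of ribonucleotide reductase, had 68.2, 134 and 235 CPM in dividing microglia, against 0, 0.857 and 1.83 CPM in non-dividing microglia (7.21 ± 0.31, edgeR adjusted p = 6.8e-16), without overlap. Thymidylate synthase Tyms rose by 3.52 ± 0.18 and thymidine kinase Tk1 by 4.80 ± 0.27. Of 7 tested DNA repair genes 6 rose (median 4.68), among them Brca1 (5.24) and Brip1 (4.68), which repair broken or stalled replication forks; at matched depth only 1 gene of the list could be tested, at 4.29.

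Chromosome segregation genes rose almost without exception. All 19 tested kinetochore and centromere genes rose (median 5.86; matched depth, 12 of 12), as did 38 of 39 spindle and kinesin genes, all but Pttg1 (median 5.54; 29 of 30) and 12 of 12 cohesin and condensin genes (median 3.73; 8 of 8). Cenpa, the histone that marks centromeres, had 186, 279 and 347 CPM in dividing microglia, against 3.56, 4.47 and 5.27 CPM in non-dividing microglia, and rose by 5.97 ± 0.17 (edgeR adjusted p = 3.7e-19). The groups did not overlap. Hmmr, Prc1 and Pbk, a spindle assembly factor, a midzone bundler and a mitotic kinase, rose by 8.91, 8.74 and 7.93. For Nusap1, Plk1 and Aspm, which were nearly absent from non-dividing cells with 3, 3 and 2 UMIs, the ratios were 984-fold (counting interval 334 to 4797), 376-fold (counting interval 125 to 1847) and 559-fold (counting interval 151 to 4667). Kinetochore genes Nuf2 and Bub1 held 123 and 100 UMIs in dividing cells and 1 UMI each in non-dividing cells, ratios of 1145-fold (counting interval 202 to 45604) and 931-fold (counting interval 163 to 37144). The cohesin acetyltransferase Esco2 had a ratio of 605-fold (counting interval 164 to 5051), and the condensin subunits Smc2 and Smc4 rose by 3.65 and 3.99. Spindle genes that non-dividing cells also express had smaller folds: Stmn1 had 747, 1622 and 2241 CPM in dividing microglia, against 51.5, 79.6 and 129 CPM in non-dividing microglia (4.14 ± 0.20), and the tubulin Tubb5 rose by 2.10 ± 0.11.

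Chromatin genes rose together, 22 of 22 tested, with a median of 2.33 (matched depth, 19 of 19). H2afz, a histone variant, had 2042, 2319 and 2709 CPM in dividing microglia, against 361, 499 and 583 CPM in non-dividing microglia (2.33 ± 0.10, edgeR adjusted p = 6.9e-16). The groups were apart in all samples. Hmgb2, a chromatin architectural protein, rose by 2.52 ± 0.12, the linker histone Hist1h1b by 7.09 ± 0.37, and Ezh2, the methyltransferase of Polycomb, by 3.50 ± 0.22. Replication histones such as Hist1h1b and Hist1h2ap have messages without a poly(A) tail and are counted poorly by a poly(A)-primed assay. Of 7 tested E2F, MYB and DREAM factors, 4 rose: Foxm1, the activator of mitotic genes (6.10 ± 0.43), E2f1 (2.25 ± 0.29), its partner Tfdp1 (1.92 ± 0.25) and Lin9, a MuvB subunit (1.39 ± 0.25). E2f3, E2f4 and Lin37 stood at 0.51, 0.37 and 0.38 and did not pass, although E2f3 was called at matched depth (0.82, edgeR adjusted p = 0.011), and the other 10 of the 17 listed factors were too low to test.

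Of the 7210 genes, 14.3% were higher in every hashed sample and 13.6% lower in every one. Outside these lists, the largest rises that held in every sample were again in genes known from division. Pimreg, a mitotic regulator, had 137 UMIs in dividing and 0 in non-dividing microglia, so it was at least 425-fold higher over the summed counts, taking 3 counts as the floor. Pclaf had 194, 345 and 372 CPM in dividing microglia, against 0.502, 1.12 and 3.83 CPM in non-dividing microglia (7.48 ± 0.22), and Cdca3 136, 144 and 217 CPM in dividing microglia, against 0.445, 0.744 and 1.71 CPM in non-dividing microglia (7.37 ± 0.24). Neither gene overlapped between groups. Cdca2, Shcbp1 and Knstrn, a chromosome phosphatase partner, a midbody protein and a kinetochore adaptor, rose by 7.07, 6.53 and 5.56, Lockd by 6.33, Cit, a kinase of cytokinesis, by 5.38, and Tcf19 by 4.68. Stil, needed for centriole copying, had 47 and 3 UMIs, a ratio of 146-fold (counting interval 47.0 to 733).

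Microglial identity genes were lower in the dividing cells. All 19 tested homeostatic genes outside the rule fell, with a median of -0.86. At matched depth 13 of 19 fell with a median of -0.41 and 0 rose, and with thinned cells 18 of 19 fell with a median of -0.80. With at least 6 UMIs of the 4 microglia genes per cell in place of 3, 18 of 19 fell with a median of -0.63. Without the cells that carried neural or T cell markers 19 of 19 fell with a median of -0.73. Cx3cr1 had 671, 1426 and 2148 CPM in dividing microglia, against 2259.8, 2356 and 2936 CPM in non-dividing microglia (-0.86 ± 0.13, edgeR adjusted p = 1.4e-05; -0.41 at matched depth). Every dividing sample was below every non-dividing one, and the lowest dividing sample was pool 2 hashtag 5. Sall1, the transcription factor that maintains microglial identity, had 53.0, 77.1 and 201 CPM in dividing microglia, against 151, 187 and 258 CPM in non-dividing microglia (-0.92 ± 0.15, edgeR adjusted p = 3.1e-05; -0.42 at matched depth). Sall1 was lower in 7 of 7 samples though the ranges overlapped. The cystatin Cst3 fell by 1.31, the purine receptor P2ry13 by 1.34 and the fructose transporter Slc2a5 by 1.61, and each was called at matched depth too, at -0.90, -0.88 and -0.99. Fcrls, Olfml3, Mef2c, Bin1, Golm1 and Sall3 were not called at matched depth, where they stood between -0.39 and -0.05. Of the microglia genes that the rule used, P2ry12 had 158, 522 and 683 CPM in dividing microglia, against 906, 1249 and 1500.5 CPM in non-dividing microglia, and Tmem119 had 334, 605 and 864 CPM in dividing microglia, against 941, 1053 and 1262 CPM in non-dividing microglia. These are a description; the rule asked for 3 UMIs over the 4 genes whatever a cell's depth, and the sample medians of their share of a cell's UMIs were 0.101% to 0.260% in dividing and 0.346% to 0.507% in non-dividing microglia of the 7 samples.

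**Figure D4:**
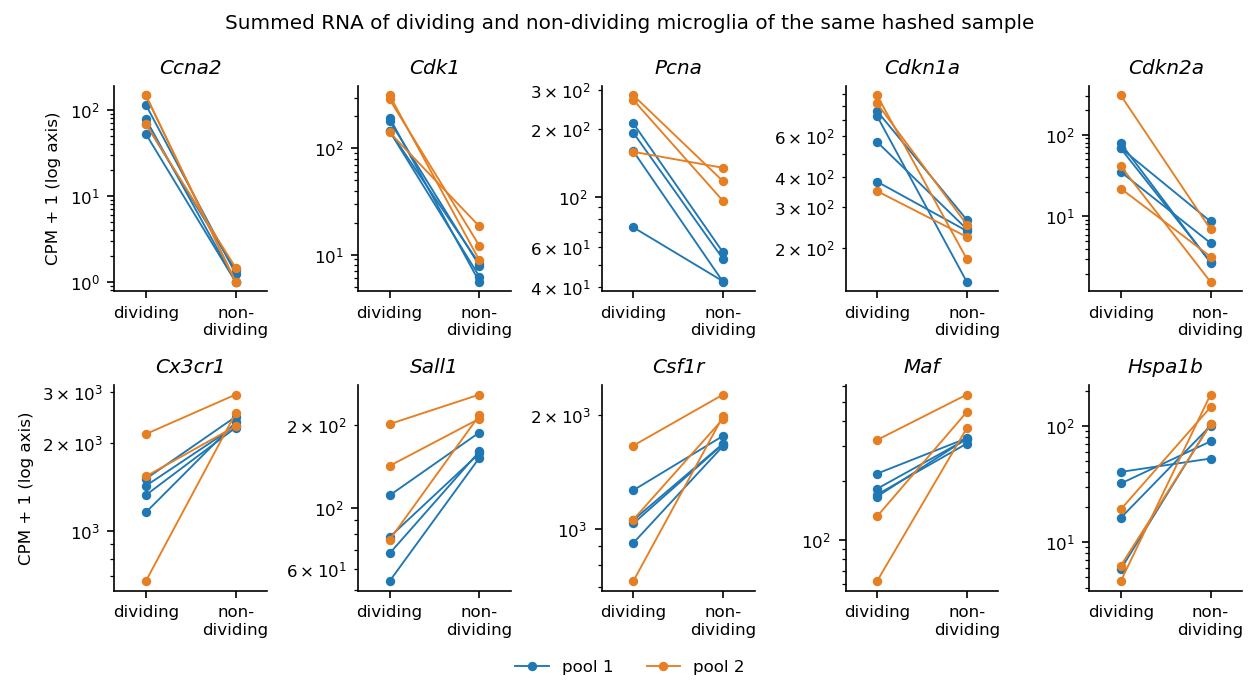
CPM plus 1 (log axis) of 10 genes in dividing (left) and non-dividing (right) microglia of the same hashed sample, joined by lines and coloured by pool. All 7 lines fall to the right for Ccna2, Cdk1, Pcna, Cdkn1a and Cdkn2a, and all 7 rise to the right for Cx3cr1, Sall1, Csf1r, Maf and Hspa1b.

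Genes of the CSF1 receptor and growth signalling were lower or did not differ detectably. Of 20 tested, 0 rose and 10 fell (median -0.52; matched depth, 7 of 16 fell); Csf1r is also in the homeostatic list, and Fos, Jun and Egr1 in the dissociation list. Csf1r, on which microglial survival depends, had 725, 1053 and 1659.8 CPM in dividing microglia, against 1656, 1762 and 2268 CPM in non-dividing microglia (-0.78 ± 0.11, edgeR adjusted p = 5.5e-06; -0.38 at matched depth), and was lower in 7 of 7 samples. Maf, a transcription factor known to restrain macrophage self-renewal, had 61.0, 169 and 319.5 CPM in dividing microglia, against 306, 326 and 543 CPM in non-dividing microglia (-1.12 ± 0.17, edgeR adjusted p = 2.1e-05; -0.47 at matched depth). It was lower in 7 of 7 samples, and the highest dividing sample, pool 2 hashtag 4, overlapped the non-dividing ones. The transforming growth factor receptor Tgfbr2 fell by 0.85 and Csf3r, the receptor of granulocyte colony-stimulating factor, by 1.46. Myc, at 3.78, 15.5 and 75.4 CPM in dividing microglia, against 7.71, 14.1 and 24.5 CPM in non-dividing microglia, did not pass (0.58 ± 0.37, and -0.09 without the cells that carried neural or T cell markers), nor did the ligand Csf1 (0.25 ± 0.17; 0.39 and called, at an edgeR adjusted p of 0.027, without those cells), the receptor subunits Csf2ra (-0.18) and Csf2rb (-0.05), or the macrophage factor Spi1 (-0.16).

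Immediate-early and heat shock genes, which enzymatic dissociation is known to induce, were lower: 14 of 16 fell and 1 rose, with a median of -0.99 (matched depth, 10 fell and 1 rose, median -0.78). Hspa1b, an inducible heat shock protein, had 3.59, 15.1 and 39.2 CPM in dividing microglia, against 51.5, 102 and 186 CPM in non-dividing microglia (-2.69 ± 0.41, edgeR adjusted p = 3.1e-04; -1.67 at matched depth), with every dividing sample below every non-dividing one. Jund fell by 1.34, Junb by 0.99 and Jun by 1.08. Among all genes the largest falls that held in every sample were Abca9, a lipid transporter, at 3.59, 9.64 and 23.5 CPM in dividing microglia, against 77.1, 86.2 and 115 CPM in non-dividing microglia (-2.90 ± 0.25), Hspa1b, the transcript A830008E24Rik (-2.46), Bmf, a promoter of apoptosis (-2.42), Garnl3 (-2.30), the phosphodiesterase Pde8b (-2.28), the transcription factor Klf4 (-2.25), Padi2 (-2.11), P3h2 (-2.08) and Matk (-2.07). Klf4 kept its size at matched depth (-2.23, edgeR adjusted p = 1.2e-15). Of 9 apoptosis genes 2 rose and 2 fell, near the 19.7% and 16.6% of all genes: Bax and Bak1, which permeabilise mitochondria, rose by 0.57 and 0.84, and Mcl1 and Casp8 fell by 0.56 and 0.46; Casp8 was not called at matched depth (-0.31).

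Interferon response genes rose in 11 of 19 tested and fell in 0 (median 0.50), where 19.7% of all genes were higher and 16.6% lower. The median and the counts differed between comparisons. Against cells of matched depth 4 rose and 1 fell of 18 (median 0.06), near the 15.0% and 12.0% of all genes there. With all cells thinned to 2000 UMIs 10 rose and 0 fell of 17 (median 0.66), against 13.2% and 12.9% of all genes. In the samples of pool 2 alone 3 rose and 0 fell of 20 (median 0.12), where only 7.37% of all genes were higher and 6.3% lower. Cxcl10, a chemokine that draws T cells, had 575, 1907 and 3662 CPM in dividing microglia, against 233, 357 and 547 CPM in non-dividing microglia (2.31 ± 0.31, edgeR adjusted p = 7.8e-04; 1.22 at matched depth, adjusted p = 0.047), and no dividing sample overlapped the non-dividing ones. Ifitm3, an antiviral membrane protein, rose by 1.12 ± 0.12 and by 0.52 at matched depth. Bst2 and Gbp2 rose by 0.52 and 0.79 and stood at 0.06 and 0.06 at matched depth, where neither was called. Rsad2 turned round: it rose by 0.94 ± 0.29 against all non-dividing cells and fell by 0.94 against cells of matched depth (edgeR adjusted p = 0.0026); its rise was not called without pool 1 hashtag 4 (0.62) or pool 1 hashtag 5 (0.86).

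The counts of the other immune groups stand against 19.7% higher and 16.6% lower among all genes tested, and those of the MHC class I and chemokine lists are near these shares. Of 9 MHC class II genes 0 rose and 2 fell, Cd74 and H2-Oa (median -0.20); Cd74, the invariant chain, had 4339, 10972 and 14741 CPM in dividing microglia, against 6366, 13769.6 and 16616 CPM in non-dividing microglia (-0.42 ± 0.12, edgeR adjusted p = 0.0061), and was no longer called without the cells that carried neural or T cell markers (-0.27, adjusted p = 0.10). Of 15 MHC class I and proteasome genes 4 rose and 3 fell; the immunoproteasome subunits Psmb8 and Psmb9 rose by 0.59 and 0.39 and the transporter Tap1 by 0.46, while H2-D1 and H2-M3 fell by 0.37 and 0.72. Each of Tap1, Psmb9, H2-D1, H2-Oa and C1qc lost its call when 1 hashed sample was left out: Tap1 (0.33) without pool 1 hashtag 5, Psmb9 (0.29) without pool 1 hashtag 4, and H2-D1 (-0.30), H2-Oa (-0.39) and C1qc (-0.33) without pool 2 hashtag 6. Of 11 complement genes 5 fell, among them C1qa, C1qb and C1qc, the subunits of the first component, at -0.34, -0.40 and -0.32, and Itgam (CD11b) at -0.63; without the cells that carried markers C3 and Cfb also passed, at 0.78 and 0.63. Of 16 chemokine and cytokine genes 3 rose, Ccl12, Ccl2 and Cxcl16, and 2 fell (matched depth, 1 and 2); Ccl2 stood at -0.06 at matched depth and was not called without pool 1 hashtag 4 (0.38) or pool 2 hashtag 5 (0.55), and Ccl4, a chemokine of activated microglia, stood at 0.04 ± 0.11.

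Disease-associated microglia genes were split, with 4 of 18 higher and 4 lower, shares near the 19.7% and 16.6% of all genes tested. Cst7, a cystatin typical of activated microglia, had 258, 362 and 569 CPM in dividing microglia, against 109, 179 and 277 CPM in non-dividing microglia (1.21 ± 0.13, edgeR adjusted p = 3.2e-08; 0.33 at matched depth), and was higher in 7 of 7 samples although the ranges overlapped. Axl, a receptor for apoptotic cells, rose by 0.98 and Cd72 by 0.80; at matched depth they stood at 0.37 and -0.0041 and were not called. Trem2, its adaptor Tyrobp and cathepsin D (Ctsd) fell by 0.89, 0.41 and 0.52. Ctsd did not pass without the cells that carried neural or T cell markers (-0.38, adjusted p = 0.085). Trem2 and Tyrobp stayed lower at matched depth (-0.71 and -0.51), where 7 of 17 genes of the group fell and 1 rose (median -0.39). With cells thinned to 2000 UMIs 3 of 17 rose and 3 fell (median 0.36), so the balance of the group differed between these comparisons. Apoe varied widely, with 309.7, 2504 and 4956 CPM in dividing microglia, against 1047, 1565 and 3009 CPM in non-dividing microglia (0.23 ± 0.42), and did not pass.

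Most genes of ribosome biogenesis rose. Of 20 ribosome biogenesis and MYC-target genes 16 rose and 0 fell (median 0.70; matched depth, 9 rose and 0 fell, median 0.38). Ran, the nuclear transport GTPase that also guides spindle assembly, had 484, 742 and 976 CPM in dividing microglia, against 127, 198 and 223 CPM in non-dividing microglia (1.94 ± 0.11, edgeR adjusted p = 1.5e-13), and its exchange factor Rcc1 and partner Ranbp1 rose by 2.41 and 1.64. Nucleophosmin Npm1 rose by 0.74 ± 0.12 and stood at 0.19 at matched depth, where it was not called. Of 15 glycolysis and hypoxia genes 7 rose and 1 fell (median 0.27; matched depth, 5 rose and 3 fell of 13, where Aldoa stood at -0.28, adjusted p = 0.044); Pgk1, Gapdh and Pkm rose by 1.25, 0.998 and 0.95, and by 0.57, 0.48 and 0.38 at matched depth, whereas hexokinase Hk2 fell by 0.64.

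Surface proteins were compared over the 10 antibody tags shared by the pools, as centred log ratios within a cell averaged per hashed sample, with an exact two-sided sign permutation test whose smallest p is 0.0156 with 7 samples. Of 10 tags, 4 were higher (40.0%) and 3 lower (30.0%) at an adjusted p under 0.05. The TMEM119 tag was -0.61 ± 0.52 in dividing and 0.08 ± 0.25 in non-dividing microglia, lower in 7 of 7 samples by 0.70 on average (exact sign permutation, adjusted p = 0.031). The PD-L1 tag was -0.20 ± 0.17 in dividing and -0.56 ± 0.15 in non-dividing microglia, higher in 7 of 7 by 0.37 (exact, adjusted p = 0.031). MHCII was higher by 0.32 in 6 of 7 samples and CD52 by 0.15 in 6 of 7 (exact, adjusted p = 0.045 for both), and CD49d by 0.16 in 7 of 7. CD11b and CD74 were lower in 7 of 7 samples by 0.20 and 0.15. On raw log2 tag counts, which are not scaled to a cell's other tags, both directions turned: CD11b was higher by 0.29 in 5 of 7 samples and CD74 by 0.37 in 7 of 7 (exact, adjusted p = 0.0625 and 0.022), and 8 tags passed as higher and 0 as lower. CD45, Gr-1 and Ly6C differed by -0.15, 0.12 and 0.08 and did not pass. Against cells of matched RNA depth the differences were smaller, -0.20 for TMEM119, 0.11 for PD-L1 and 0.01 for MHCII, and no tag passed; TMEM119 was then lower in 6 of 7 samples (exact, unadjusted p = 0.031) and CD49d and Gr-1 were each higher in 7 of 7, by 0.08 and 0.07 (exact, unadjusted p = 0.016 and adjusted p = 0.078 for both). On tag counts per 1000 without matching, Gr-1 was higher by 0.14 in 7 of 7 samples and passed (exact, adjusted p = 0.026). Dividing cells also carried more tags in all, with sample medians of 1167 to 2053 tag UMIs in dividing and 993 to 1405 tag UMIs in non-dividing microglia, higher in 7 of 7 samples.

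**Figure D5:**
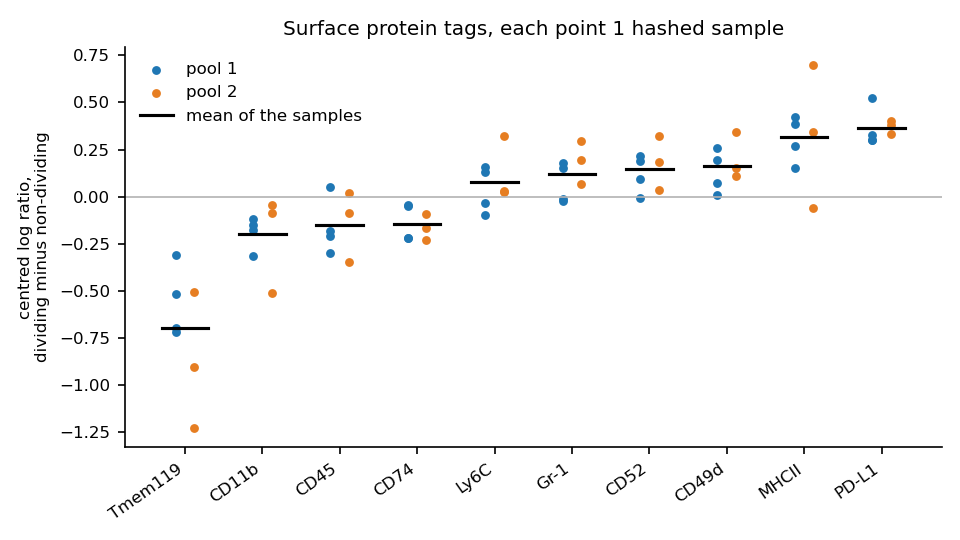
Difference of the mean centred log ratio of each surface protein tag, dividing minus non-dividing microglia (vertical axis), with a point for each of 7 hashed samples, coloured by pool, and a bar for their mean. TMEM119 lies lowest, at -0.70 on average, and PD-L1 highest, at 0.37.

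The same contrast was taken in infiltrating myeloid cells, to see where dividing microglia differ from other dividing cells. In all, 6 hashed samples held at least 5 cells in each of the 4 sums, with 6 to 13 dividing infiltrating cells each. The difference of the contrasts passed for 178 of 8233 genes in the positive direction (2.16%) and for 133 in the negative (1.62%). Cycle genes were among the positive ones: 8 of 42 spindle genes, 6 of 23 chromatin genes, 3 of 34 replication genes and 2 of 17 cyclins and CDKs had a larger rise in microglia, and 0 of these had a smaller one. Both dividing arms were chosen by at least 4 UMIs of the cycle genes whatever a cell's depth. The cycle differences are thus not independent of that choice. The median difference was 0.74 for the 5 cycle genes of the rule, 0.84 for cyclins and CDKs and 0.78 for replication genes. Hist1h1b averaged 73.5 CPM in dividing and 0.0954 CPM in non-dividing microglia, and 10.3 CPM in dividing and 1.85 CPM in non-dividing infiltrating cells (difference 5.93 on the log2 scale, edgeR adjusted p = 1.9e-04), and Tpx2, a spindle assembly factor, 145 CPM in dividing and 1.32 CPM in non-dividing microglia, and 19.9 CPM in dividing and 3.09 CPM in non-dividing infiltrating cells (4.07, edgeR adjusted p = 0.0051). The checkpoint kinase Chek2 averaged 34.2 CPM in dividing and 12.1 CPM in non-dividing microglia, and 1.32 CPM in dividing and 9.14 CPM in non-dividing infiltrating cells (4.14, edgeR adjusted p = 0.013). Hist1h1b held 2 UMIs in non-dividing microglia and Chek2 held 1 UMI in dividing infiltrating cells, so the sizes of their fitted differences depend on the prior count. In all 3 genes the microglial difference was the larger one in 6 of 6 samples. With its 1 UMI, Chek2 was at 0 in dividing infiltrating cells of most samples. The count of samples for Chek2 therefore cannot show how regular its difference was. Among 20 interferon response genes 10, and among 18 glycolysis genes 5, had a positive difference, and 6 of 19 homeostatic genes a negative one. Infiltrating cells were chosen for at most 1 UMI over the 4 microglia genes, so homeostatic genes may have had little room to fall in them. The homeostatic difference is thus not independent of how the classes were chosen. At matched depth only 21 positive and 26 negative differences passed, and without the cells that carried neural or T cell markers 370 and 136.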

How the data were processed

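RNA and antibody tags were counted in CD11b+ brain cells with 10x Chromium 3' chemistry. The deposited matrices hold counts, that is raw UMI counts per gene or tag and barcode, made by the authors. The build mm10 and the tools Seurat 3, bcl2fastq 2.20.0.422 and Cell Ranger (3.0.1 and 4.0.0) are listed, with no order, in the submitters' processing notes. Per the file headers, the software version was 3.1.0 in pool 1, while the other pools had 4.0.0. The 3 pools share 30406 genes.

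Cells were filtered and chosen by the rule given above, and raw counts were summed per hashed sample and arm. The sums held 177735 to 488928 UMIs in dividing and 1149086 to 3945045 UMIs in non-dividing microglia. Genes passing filterByExpr were tested with edgeR 4.0.16 (robust quasi-likelihood fit, TMM scaling, hashed sample as block, Benjamini-Hochberg adjustment) in R 4.3.3. DESeq2 1.42.0 was an alternative. Matching and thinning were done in Python 3.11.15 with numpy 2.4.6. Matching used UMIs outside the cycle genes, and thinning drew from all RNA UMIs of a cell, cycle genes included. The test for infiltrating cells was designed for at least 10 cells per sum, which left 1 hashed sample, so the result reported is the one listed as an alternative to that design, with sums of at least 5 cells.

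The members and gene lists were chosen with earlier results of these data known. Named genes were the 13 rule genes, the 10 largest rises inside and outside the cycle lists and the 10 largest falls held in every sample, the 10 largest differences in each direction of the test against infiltrating cells, and from each list up to 5 by level and 5 by change, with all members of the cyclin, inhibitor, E2F, CSF1 receptor and homeostatic lists; some genes of these lists are counted but not reported here. A few further genes of the lists of shares per cell were chosen after their values were seen. Both arms come from the same hashed sample, which is the pairing; deviations of the arms from their group means correlated at 0.461 to 0.762 over 1525 genes. Nothing used here says that hashed samples are separate animals, so p-values measure the spread between hashed samples. Doublets were not removed. Scrublet's automatic threshold marked 0%, 4.32% and 0.051% of cells in pools 1, 2 and 3, so it did not work in pools 1 and 3, and a fixed score of 0.2 was used as an alternative. On simulated counts for 7210 genes, log2 changes of 0.5, 1, 2 and 3 were called in 22%, 82%, 94% and 92% of 50 genes each, and 10 of 155 calls were false. Intervals and floors cover counting error only. Promoters come from the RefSeq table, since no genome was used here. The sources do not state whether counting used strand, so a gene and an overlapping antisense gene cannot be told apart.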

Additional observations from a re-analysis of the deposited data

Results flagged for a closer look

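Among 65 groups of 7 hashed samples tested for a far sample, 3 were flagged, and chance flags about 1 in 20. All 3 concern pool 2 hashtag 5, which was the lowest sample. The log2 ratio of CPM plus 1, dividing over non-dividing microglia, was 5.41 for the spindle gene Hmmr, against 6.61 to 7.48 in the other samples. For the kinetochore gene Nuf2 it was 4.35, against 5.62 to 6.49, and for the phosphodiesterase Pde8b it was -4.71, against -2.35 to -1.34. The pair of Sox2-rich cells held 27.1% and 17.3% of the dividing sum of this sample; their part in these values was not tested.

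For 20 genes the contrast of dividing and non-dividing cells differed most between microglia and infiltrating cells, by the test of the difference itself (edgeR, 6 hashed samples; values are differences of log2 fold changes, microglia minus infiltrating cells). The 10 largest positive differences were those of Hist1h1b (5.93), Timp1 (5.33), E2f8 (4.33), Chek2 (4.14), Fanca (4.08), Tpx2 (4.07), Pdlim7 (4.05), Ccnf (3.89), Diaph3 (3.84) and Ch25h (3.77). E2f8, a repressor of the E2F family, averaged 34.5 CPM in dividing and 0.269 CPM in non-dividing microglia, and 18.6 CPM in dividing and 2.43 CPM in non-dividing infiltrating cells, and Ccnf, an F-box cyclin, 40.0 CPM in dividing and 0.393 CPM in non-dividing microglia, and 9.05 CPM in dividing and 1.11 CPM in non-dividing infiltrating cells. Ch25h, the cholesterol 25-hydroxylase, averaged 75.1 CPM in dividing and 6.57 CPM in non-dividing microglia, and 4.41 CPM in dividing and 9.19 CPM in non-dividing infiltrating cells (edgeR adjusted p = 0.0057), and its difference had the same direction in 6 of 6 samples. Timp1, an inhibitor of metalloproteinases, showed its direction in 3 of 6 samples, and without the cells that carried neural or T cell markers it was -1.15.

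The 10 largest negative differences were those of Srxn1 (-6.98), Pde2a (-5.56), Mgll (-4.79), Gm31243 (-4.60), Zfp202 (-4.31), Tubb2b (-4.21), Inpp4b (-4.01), Olfml2b (-3.91), Gimap6 (-3.79) and Bank1 (-3.75). Mgll, the monoglyceride lipase of microglia and other brain cells, averaged 9.06 CPM in dividing and 55.2 CPM in non-dividing microglia, and 4.84 CPM in dividing and 1.02 CPM in non-dividing infiltrating cells (edgeR adjusted p = 0.015). A sum of 3 UMIs or fewer stood behind 6 of the 20 genes: Srxn1 had 0 UMIs and Pde2a 1 UMI in dividing microglia, Hist1h1b 2 UMIs and E2f8 3 UMIs in non-dividing microglia, and Chek2 1 UMI and Diaph3 3 UMIs in dividing infiltrating cells. The values of these 6 depend on the prior count of the fit and are neither measured sizes nor bounds, and their place in the order depends on it too. The dividing over non-dividing ratio was the larger one in microglia in 0 of 6 samples for Mgll and Pde2a, and in 3 of 6 for Zfp202 and Olfml2b. With its 1 UMI, Pde2a was at 0 in dividing microglia of most samples, so its count of samples rests on low counts. Without the cells that carried neural or T cell markers, Inpp4b (-1.57), Tubb2b (-1.23) and Mgll (-3.998) no longer passed. Of all 20, only Tpx2 could be tested at matched depth, where its difference was 3.59 (edgeR adjusted p = 0.16).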

How the results depend on the processing

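Counts of genes called in dividing against non-dividing microglia moved most with depth and sample number. The 1423 genes higher became 682 with comparison cells matched on UMIs and 540 with cells thinned to 2000 UMIs; the 1196 lower became 544 and 529, and 740 when cells with an infiltrating UMI were left out; in either direction 2619 became 1226 and 1069. Leaving out 1 pool at a time gave 644 to 1423 genes higher, 550 to 1196 lower and 1194 to 2619 in either direction, the lowest without pool 1; pool 3 gave no sample. DESeq2's test called 1277 and 1019, and library size without TMM called 1399 and 1229. Thinning and matching leave fewer UMIs and cells. Leaving out 1 hashed sample at a time, chosen after seeing the data, gave 1123 to 1440 higher, 1041 to 1304 lower and 2359 to 2604 in all. Over pools and hashed samples left out in turn, named genes kept their sign and their status, called or not called, 2002 times. They lost a call 72 times and gained one 20 times. In 43 cases the sign changed with no call in either fit.

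Without the replicate block, the pairing of both arms by hashed sample, 1263 genes were higher and 952 lower, the interaction with infiltrating cells had 117 genes higher in place of 178, and 1 tag was higher and 1 lower. That interaction also depended on other choices: matched on depth it gave 21 higher, 26 lower and 47 in all, and without cells that carried neural or T cell markers 370 higher and 506 in all. Leaving out a pool gave 70 to 178 higher, 36 to 133 lower and 109 to 311 in all. Without pool 2 Bank1, Olfml2b, Inpp4b, Gm31243 and Mgll changed sign; with a pool left out their differences ranged over -4.11 to 3.54, -4.44 to 2.93, -4.54 to 4.28, -5.50 to 3.00 and -5.28 to 2.38. The sign also changed for Timp1 (-1.15) without the cells that carried markers. The cause was not tested.

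Matched on depth, Cd72 (-0.0041), Rsad2 (-0.94), Ccl2 (-0.057) and Aldoa (-0.28) changed sign. With counts summed per pool, which no longer holds the hashed sample fixed, Ccl5 (0.48), H2-D1 (0.48), B2m (0.64), H2-K1 (0.85), Cd74 (1.18), H2-Ab1 (1.35), H2-Eb1 (1.28), H2-Aa (1.27), H2-DMa (0.64), H2-Oa (0.44) and C4b (1.10) changed sign.

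Of the tags, 8 were higher and 0 lower on raw log2 counts, where CD11b (0.29), CD45 (0.36) and CD74 (0.37) changed sign; raw counts matched on depth, chosen after seeing the data, gave 0 and 0, with CD74 at 6.6e-05. Matching on depth, at least 20 cells per arm, and leaving out a pool also gave 0 higher and 0 lower; 4 higher and 3 lower remained without pool 3, which held none of the samples. With 5 or fewer samples the exact test cannot go under p = 0.0625. The share of dividing cells, 2.12%, was 1.09% after thinning, 1.74% with at least 6 cycle UMIs and 3.07% with at least 2.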

Other observations

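An antibody tag for Ccr2, a receptor of infiltrating monocytes, was counted in pool 2 and not in all pools. Its median was 17, 13 and 16 UMIs per cell in dividing microglia of hashtags 4, 5 and 6, against 10, 12 and 11 UMIs in non-dividing microglia. All surface protein tags of pool 2 together, the Ccr2 tag included, had medians of 1979, 1708 and 1702 UMIs per cell in dividing microglia of these samples. In non-dividing microglia these medians were 1198, 1405 and 1222.5 UMIs, and the Ccr2 values were not scaled to them. Ccr2 RNA had a UMI in 0.546% of dividing and in 1.22% of non-dividing microglia of the 7 hashed samples compared. The rule held Ms4a7, Ly6c2, Plac8 and Ccr2 together to at most 1 UMI per cell in both arms. These RNA shares are therefore limited by the choice of cells and cannot be set against the tag.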
